A study of Homo sapiens with 18 samples.

Results

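Divergent transcripts are the RNAs that start at the promoter of a coding gene and run away from it on the other strand. Genes of this kind carry the name of the coding neighbour followed by -DT. The data hold 57500 genes, of which 578 have such a name, and the 242 of them with a mean of at least 10 read counts over the 12 parental libraries are described here, each beside the coding gene of its name (its partner). They were chosen by their mean count, and by no other measured value. All 242 are annotated as long non-coding RNAs (lncRNAs) and all lie on the strand opposite to their partner.

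Many mammalian promoters fire in both directions. The coding direction is usually rich in splice sites that the U1 small nuclear ribonucleoprotein recognises, and this protects the nascent RNA from early cleavage, whereas the upstream antisense direction tends to meet polyadenylation signals early, so that its RNA is cleaved, terminated and handed to the nuclear exosome. Divergent transcripts that escape this fate are spliced or polyadenylated and accumulate as lncRNAs, often at low levels.

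The 18 libraries came from ES8, an Ewing sarcoma cell line, and Rh30, an alveolar rhabdomyosarcoma cell line, both made to express dCas9-KRAB, which represses the promoter that a guide RNA points to (CRISPR interference). Each line was given a control guide (sgCTL) or a guide against DNAJC17 (sgDNAJC17), a gene of the HSP40 co-chaperone family whose protein carries an RNA recognition motif (RRM). The remaining group in each line received sgDNAJC17 in cells that stably carried a FLAG-tagged DNAJC17 cDNA lacking that motif (3xFLAG-DNAJC17-dRRM, here ΔRRM). Each of the 6 groups had 3 libraries (A, B and C) of polyA-selected RNA collected 72 h after puromycin was added. Because the cells were plated in triplicate, p-values measure the spread between these cultures, which may be technical. No ΔRRM library had the control guide, so the effects of the cDNA, of the engineered population and of the knockdown cannot be told apart in the ΔRRM groups.

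The libraries held 35342393 to 48245989 counts. DNAJC17 had 559 to 625 counts in the ES8 sgCTL libraries, 59 to 77 after sgDNAJC17 and 13295 to 14449 in the ΔRRM libraries, where the cDNA is counted too. In Rh30 the corresponding counts were 461 to 522, 81 to 113 and 9849 to 13947. The 8 Ewing sarcoma markers summed to 577 to 595 CPM (read counts scaled to a common library size) in the ES8 controls and 192 to 199 in those of Rh30, where NKX2-2 and CCK were at 0. The 8 rhabdomyosarcoma markers summed to 3344 to 3478 CPM in the Rh30 controls and 119 to 122 in those of ES8, where 6 averaged under 1 CPM and MYOG and CHRNA1 were at 0. Between the controls edgeR called all 8 Ewing sarcoma markers higher in ES8. Of the 8 rhabdomyosarcoma markers it called 7 lower and 1 higher in ES8 (all genes: 42% lower and 45.5% higher). Blood cell markers summed to at most 1.19 CPM in any library, and the 2 endothelial genes measured to at most 0.703 CPM.

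Most of the 242 transcripts were true head-to-head neighbours of their partner. The annotated 5′ ends were apart and facing away from each other in 182 pairs and overlapped in 60. They lay within 100 bases of each other in 62 pairs, within 300 bases in 170 and within 1000 bases in 225, with a median distance of 168.5 bases. In 10 pairs the 5′ ends were more than 2000 bases apart, among them FGGY-DT (88517 bases) and ITGB1-DT (46947 bases), so for these the name alone links the genes. The exons of 52 transcripts overlapped exons of the partner, in 19 of them by more than 10% of their length, and 149 had no exon in common with any other gene. The sources used here do not state whether the counting used strand, so reads in shared exons cannot be assigned to either gene.

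The transcripts were short and sparsely counted. Their exons summed to a median of 1776.5 bases (range 311 to 22965), against 5661.5 bases for the partners, and their exon GC content had a median of 47.5%, against 43.9%. The mean count was under 50 in 149 of the 242 and above 1000 in BAIAP2-DT only, with a median of 33.6 against 1766 for the partners. The threshold lay in a dense part of the distribution. MINDY2-DT and GPR176-DT had a mean of exactly 10 counts and were included, while SF1-DT (9.92) and ZNF747-DT (9.75) were not, and 39 of the 578 named genes had no count in any parental library.

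The sequences just upstream of these transcripts were those of CpG-rich promoters. RefSeq promoters (GRCh38.p14, 250 bases before to 50 bases after the start) were found for 195 of the 242 transcripts. Their GC content had a median of 69.3%, near the 68.0% of their partners' promoters, and above the 58.3% of all 27305 promoters in the table and the 51.3% of other lncRNA genes. They held a median of 31 CpG dinucleotides, against 14 over all promoters and 5 over those of other lncRNAs. The letters GGGCGG, a core that factors of the SP family bind, were present on either strand in 73.8% (44.6% of all promoters), CCAAT in 33.3% (35.7%) and the TATA box core TATAAA in 3.59% (11.95%). The letters ACTTCCGG, a core that ETS-family factors bind, were present on either strand in 25 of the 195 (12.8%), against 4.44% of all promoters and 13.3% of the partners' promoters. Because the promoters of a pair overlap, members and partners share much of this sequence. The windows of 30 bases around this motif are shown for the 6 most highly counted transcripts that have it, to let a reader see the shared letters in their GC-rich setting, with the motif or its reverse complement in capitals. They read 5′ to 3′ on the strand of the transcript, from RefSeq GRCh38.p14.
TBC1D22A-DT, chr22:46762600-46762629, minus strand: cctacgcgcgcCCGGAAGTcccgcctaagt
COX10-DT, chr17:14069474-14069503, minus strand: tccgggccgccACTTCCGGcgggcgggctc
TMEM161B-DT, chr5:88268836-88268865, plus strand: ttccggctctgCCGGAAGTtgtgcgcgcgc
SRP14-DT, chr15:40039156-40039185, plus strand: agcagtgagagCCGGAAGTtcggcctaggc
ANKRD42-DT, chr11:83193645-83193674, minus strand: cggcccacgctACTTCCGGtttcctttccc
CD2BP2-DT, chr16:30355316-30355345, plus strand: gcccgggaagcCCGGAAGTggcttcactcg
RefSeq and the annotation in the files place some of these starts differently. From the 5′ end given in the files, the motif's first base lay 55 bases upstream for TBC1D22A-DT, 48 for TMEM161B-DT, 144 for SRP14-DT and 114 for CD2BP2-DT, and inside the transcript for COX10-DT (3 bases) and ANKRD42-DT (131 bases). A match is a description of letters and not a site shown to be bound.

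In the control libraries the divergent transcripts were expressed far below their partners. Levels were compared between genes as CPM scaled by the trimmed mean of M values (TMM) and divided by the exon length in kilobases (CPM per kb). In ES8 the median transcript stood at 0.383 CPM per kb against 7.10 for the partners, and within pairs the transcript had a median of 6.51% of its partner's level. In Rh30 the medians were 0.567 and 6.62 CPM per kb, and 10.2% of the partner's level. The transcript was above its partner in 14 of 237 pairs in ES8 and in 28 of 238 in Rh30.

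RNASEH1-DT, TBC1D22A-DT, EMSY-DT and PCCA-DT were among the 5 transcripts with the highest levels per kb. RNASEH1-DT (chr2:3558492-3561745, plus strand), beside the gene of the enzyme that cuts RNA in RNA-DNA hybrids, had 8.10 CPM per kb in the ES8 and 14.4 in the Rh30 controls, against 17.3 and 12.6 for RNASEH1. EMSY-DT (chr11:76441338-76444656, minus strand) exceeded its partner in both lines, with 5.08 against 2.73 CPM per kb in ES8 and 16.8 against 3.42 in Rh30. PCCA-DT, beside the gene of a subunit of propionyl-CoA carboxylase, did so as well, with 4.30 against 3.21 CPM per kb in ES8 and 13.0 against 2.67 in Rh30. BAIAP2-DT, the most highly counted of all, had 10.8 CPM per kb in ES8 and 3.27 in Rh30, and in ES8 it was above BAIAP2, an adaptor of the actin cytoskeleton, at 4.63.

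The summed level of the 242 transcripts was close between sgCTL and sgDNAJC17 libraries and stood out in 1 group. It was 369 to 379 CPM in ES8 sgCTL, 377 to 389 in ES8 sgDNAJC17 and 360 to 377 in ES8 ΔRRM. In Rh30 it was 498 to 520 with sgCTL, 494 to 517 with sgDNAJC17 and 651 to 691 in ΔRRM. The 3 Rh30 ΔRRM libraries were thus above every other library, while the partners summed to 30154 to 31560 CPM in all 9 Rh30 libraries. Other lncRNAs summed to 6470 to 6688 CPM in Rh30 sgCTL, 6833 to 7240 in sgDNAJC17 and 8678 to 8927 in ΔRRM.

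**Figure D1:**
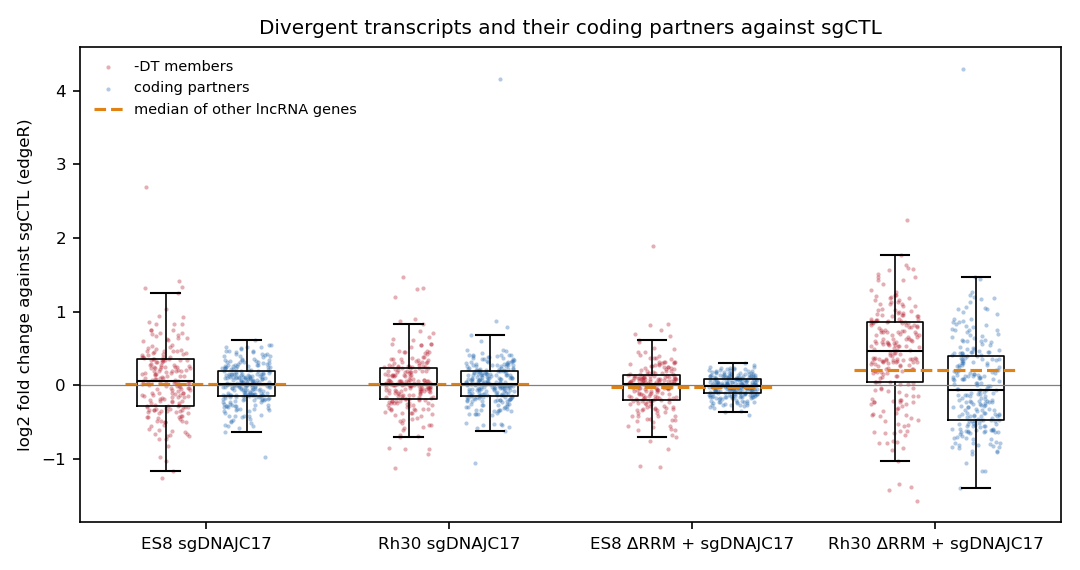
Log2 fold changes against the sgCTL libraries of the same line (edgeR) for the divergent transcripts and their coding partners, in ES8 and Rh30, for sgDNAJC17 and for ΔRRM with sgDNAJC17. The divergent transcripts of Rh30 ΔRRM lie above 0 in 167 of 218 cases with a median of 0.46, while the other sets are centred near 0.

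The distribution plot of fold changes shows the same contrast gene by gene. The shift in Rh30 ΔRRM is broad: 76.6% of the transcripts tested there had a log2 fold change above 0, against 49.2% of all genes.

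The first comparison asked how the transcripts differ between the cell lines in the sgCTL libraries. Of 234 transcripts tested, 121 were higher in Rh30 (adjusted p under 0.05 by the quasi-likelihood test of edgeR, adjusted by Benjamini-Hochberg over all genes tested) and 56 were higher in ES8. Over all genes the shares were 42% higher in Rh30 and 45.5% higher in ES8, so 51.7% of the divergent transcripts went one way and 23.9% the other where all genes were nearly balanced. The median log2 difference, ES8 minus Rh30, was -0.58 for the transcripts, 0.01 for their partners, 0.14 for other lncRNAs and 0.07 for all genes. Scaling by library size alone moved the median of all genes to 0.28 and that of the transcripts to -0.36, and correcting for exon GC and length left -0.49 for the transcripts.

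In the control libraries some divergent transcripts were counted in 1 line only. Because the count threshold was set on the mean over both lines, such a transcript could pass it through the line where it is high. The folds are therefore given as descriptions. IRX2-DT (chr5:2752131-2755397, plus strand), beside a homeobox gene, had 0 counts in the 3 ES8 controls and 6.91, 7.81 and 7.86 CPM in those of Rh30, which is at least 313-fold higher with 3 counts over the group as the limit for ES8. IRX2 itself was at 0 in ES8 and at 18.2 ± 1.65 CPM in Rh30 (SD, n = 3). DUSP5-DT, beside the gene of a phosphatase of ERK kinases, had 0 counts in ES8 and 4.16, 3.19 and 2.89 CPM in Rh30, at least 141-fold higher. RWDD3-DT had 0 counts in ES8 and 1.46, 1.42 and 1.36 CPM in Rh30, at least 58.8-fold higher.

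In the other direction SNRPF-DT (chr12:95795345-95858839, minus strand), beside the gene of the Sm core protein F of the spliceosome, had 4.18, 3.82 and 4.41 CPM in ES8 and 0 counts in Rh30, at least 205-fold higher in ES8. LY6E-DT had 0.606, 0.819 and 0.854 CPM in ES8 and 0 counts in Rh30, at least 37.5-fold higher. RNF32-DT had 6.50, 7.42 and 6.93 CPM in ES8 and 1 count over the 3 Rh30 controls (0.0248, 0 and 0 CPM).

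These differences sometimes followed the partner and sometimes did not. LY6E had 258 ± 12.3 CPM in ES8 and 0.0232 ± 0.0230 in Rh30 (SD, n = 3), a difference in the same direction as LY6E-DT. By contrast SNRPF had 123 CPM in ES8 and 106 in Rh30, and DUSP5 had 27.2 and 19.1 CPM, so DUSP5 was lower in the line where DUSP5-DT was found. Across 231 pairs the log2 differences of transcript and partner had Pearson's r = 0.67 and Spearman's rho = 0.54, and r = 0.70 over the 143 pairs with no exon overlap with any gene. This is a description across genes of the same 6 libraries, and genes are not replicates. In 160 pairs both genes were called, in the same direction in 122 and in opposite directions in 38.

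The second comparison asked what sgDNAJC17 did to the transcripts in the parental cells, and few were called in either line. In ES8, 15 of 200 transcripts tested rose (7.50%) where 13.6% of all genes rose, and 6 fell (3%) where 13.8% of all genes fell. In Rh30, 10 of 212 rose where 16.1% of all genes rose, and 6 fell where 16.2% of all genes fell. Of other lncRNAs 9.75% rose and 5.46% fell in ES8, and 7.04% rose and 5.47% fell in Rh30. Under 100 counts on average, 8.75% of the ES8 transcripts were called against 10.6% of all genes as sparsely counted, and 6.29% of the Rh30 transcripts against 10.1%. Among genes with 100 or more counts the shares were 17.5% against 34% in ES8 and 11.3% against 40% in Rh30. The median log2 fold change was 0.06 in ES8 and 0.01 in Rh30. With a fold of at least 2 required, 5 transcripts rose in ES8 (all genes: 1.66%) and 4 in Rh30 (0.767%), 1 fell in Rh30 (0.786%) and 0 fell in ES8 (0.286%). At an unadjusted p under 0.05, 41 of 200 transcripts in ES8 (all genes: 39.8%) and 31 of 212 in Rh30 (42.4%) passed edgeR's test in either direction.

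The counts of calls moved with the fit and with single libraries. Without sgDNAJC17 library A, 26 transcripts rose in ES8 (12.5%) and 16 in Rh30 (7.34%), where 22.4% and 20.3% of all genes rose. Without any other single library 6 to 8 rose in ES8, where 7.61% to 11.0% of all genes rose. In Rh30, 4 or 5 rose without sgCTL library A or B or sgDNAJC17 library B or C (all genes: 9.45% to 11.9%). The number that fell was 1 to 3 in ES8 without sgCTL library A or C or sgDNAJC17 library C (all genes: 6.69% to 10.4%). It was 3 in Rh30 without sgDNAJC17 library B (all genes: 9.91%). In ES8 sgDNAJC17 A the partners summed to 28046 CPM, against 26178 to 26390 in the other sgDNAJC17 libraries, and the part of this in the calls was not tested. With the replicate letter as a block, 9 transcripts rose in ES8, while in Rh30 15 of 212 rose, where 23.5% of all genes rose, and 10 fell, where 23.5% of all genes fell, and with the GC and length correction 16 fell in ES8, 4 rose in Rh30 and 14 fell there.

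TBC1D22A-DT (chr22:46761894-46762563, minus strand) rose in both lines while its partner, the gene of a TBC-domain protein of the family that acts on Rab GTPases, did not. Its 5′ end lies 54 bases from that of TBC1D22A, and it shares no exon with any gene. In ES8 it had 1.90, 1.85 and 2.40 CPM with sgCTL and 5.02, 5.25 and 5.16 CPM with sgDNAJC17, and in Rh30 8.74, 9.97 and 8.14 CPM with sgCTL and 11.6, 13.97 and 13.7 CPM with sgDNAJC17. All sgDNAJC17 libraries were above all sgCTL libraries of their line. The log2 fold changes were 1.33 ± 0.13 in ES8 (SE, adjusted p = 0.00028) and 0.56 ± 0.11 in Rh30 (adjusted p = 0.0015), against -0.15 ± 0.08 (adjusted p = 0.23) and -0.16 ± 0.07 (adjusted p = 0.083) for TBC1D22A. The rise was smaller in Rh30 by 0.74 ± 0.18 on the log2 scale, and this difference passed its own test (adjusted p = 0.012).

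In the ES8 ΔRRM libraries TBC1D22A-DT had 2.04, 3.30 and 2.54 CPM, which overlaps the sgCTL libraries and lies below all 3 sgDNAJC17 libraries. It was lower than with sgDNAJC17 by a log2 fold change of -0.97 ± 0.17 (adjusted p = 0.0041). In the Rh30 ΔRRM libraries it had 15.4, 15.3 and 14.5 CPM, above every other library of that line.

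MRPL20-DT (chr1:1409096-1410618, plus strand), beside the gene of a protein of the large mitochondrial ribosomal subunit, rose together with MRPL20. In Rh30 it had 0.668, 0.597 and 0.564 CPM with sgCTL and 1.49, 1.72 and 1.34 CPM with sgDNAJC17, with no overlap. In ES8 it had 1.94, 1.94 and 1.93 CPM against 2.42, 3.11 and 2.47 CPM. The log2 fold change was 1.33 ± 0.23 (adjusted p = 0.00093) for Rh30 and 0.47 ± 0.15 (adjusted p = 0.041) for ES8, and MRPL20 rose by 0.40 and 0.35. The ES8 call was lost without any of the sgCTL libraries A, B and C or sgDNAJC17 libraries B and C (adjusted p of 0.055 to 0.15). It was also lost with scaling by library size, DESeq2, the block, and the GC and length correction (0.059 to 0.071).

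MMADHC-DT (chr2:149587196-149848233, plus strand), beside a gene of intracellular cobalamin transport, had the largest rise by this test in ES8, from 0.121, 0.108 and 0.119 CPM to 0.999, 0.703 and 0.594 CPM. The log2 fold change was 2.69 ± 0.36 (adjusted p = 0.00088), and in Rh30 it was 1.30 ± 0.44 (adjusted p = 0.034). The counts were low, with 17 over the 3 ES8 sgCTL libraries and 92 over the 3 sgDNAJC17 libraries, and 20 and 47 in Rh30. The Rh30 call was lost without any of 5 libraries (sgCTL A, B or C, sgDNAJC17 A or C), and also with DESeq2 (adjusted p = 0.072), with no count filter (0.070) and with the GC and length correction (0.10). Of its exonic length 54.8% overlaps MMADHC, which rose by 0.25 and 0.41, so the 2 genes' reads cannot be told apart there.

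**Figure D2:**
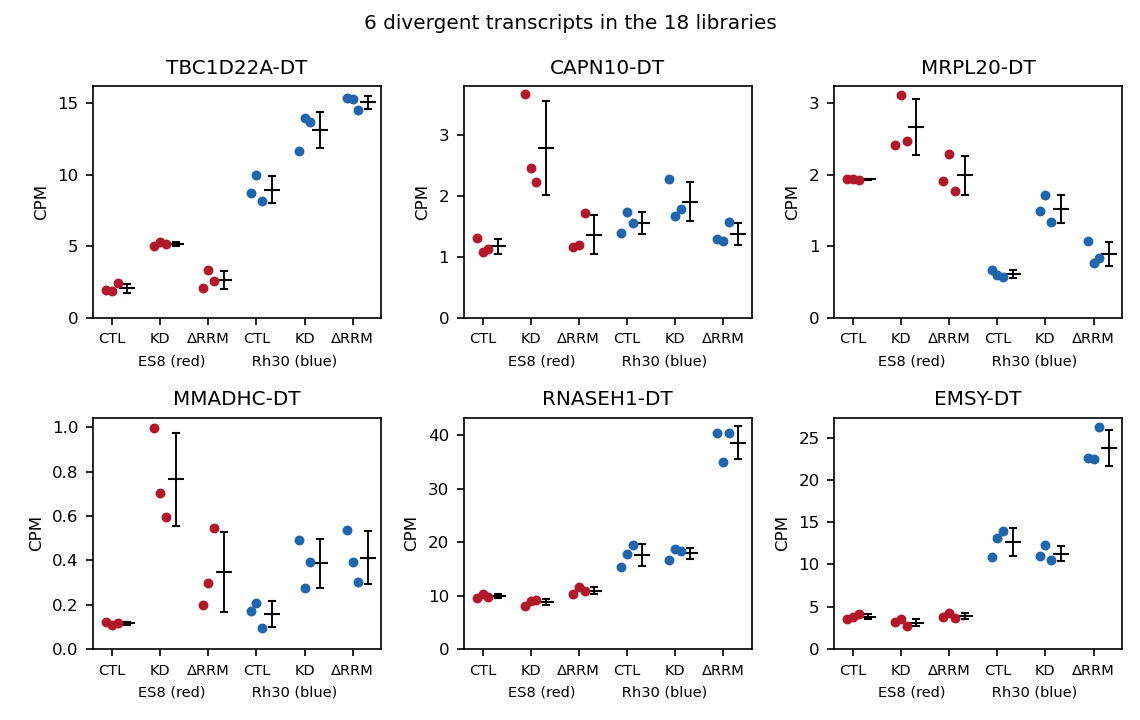
TMM-scaled CPM of 6 divergent transcripts in each of the 18 libraries, with ES8 in red and Rh30 in blue (CTL, sgCTL; KD, sgDNAJC17; ΔRRM, ΔRRM with sgDNAJC17); points are libraries and bars are the mean and SD of 3. TBC1D22A-DT rises with sgDNAJC17 in both lines, and RNASEH1-DT and EMSY-DT are higher in the 3 Rh30 ΔRRM libraries than in any other.

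The plot by library sets TBC1D22A-DT, MRPL20-DT and MMADHC-DT beside CAPN10-DT, called in ES8 alone, and RNASEH1-DT and EMSY-DT, 2 of the most abundant. In all, 4 transcripts were called in both lines by edgeR, and all 4 rose. The share of all genes called in both lines is not given here, so this count is a description only.

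Among transcripts called in ES8 only, CAPN10-DT (chr2:240582700-240586699, minus strand), beside a calpain protease gene whose 5′ end is 17 bases away, rose in that line from 1.31, 1.08 and 1.13 CPM to 3.68, 2.46 and 2.24 CPM. The log2 fold change was 1.25 ± 0.21 (adjusted p = 0.0026), while CAPN10 changed by 0.01 ± 0.08, and in the ES8 ΔRRM libraries the transcript was back at 1.16, 1.20 and 1.73 CPM. POLG-DT, beside the gene of the mitochondrial DNA polymerase, rose from 1.07, 0.992 and 1.53 CPM to 2.58, 2.01 and 2.31 CPM (0.94 ± 0.20, adjusted p = 0.0071), with no overlap between the groups and POLG at 0.02 ± 0.07. ZNF582-DT, beside a zinc finger gene, rose by 0.68 ± 0.19 (adjusted p = 0.024), a call lost without sgCTL library A or B or sgDNAJC17 library B or C (adjusted p of 0.062 to 0.090). RRAGC-DT also rose (1.33 ± 0.29, adjusted p = 0.0084), but 60.2% of its exonic length lies in exons of other genes. It was named after its value was seen. A call in ES8 only does not show that the lines differ. Of CAPN10-DT, POLG-DT, ZNF582-DT and RRAGC-DT, the difference between the lines was itself called for POLG-DT only.

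Among the 6 that fell in ES8, PRDM16-DT (-0.67 ± 0.16, adjusted p = 0.014), NCK1-DT (-0.63 ± 0.20, adjusted p = 0.040) and MCPH1-DT (-0.48 ± 0.13, adjusted p = 0.025) fell while their partners, genes of a transcription factor, an adaptor protein and microcephalin, were not called. ZFAND2A-DT (chr7:1160374-1165267, plus strand) went against its partner: it fell from 12.3, 11.1 and 13.1 CPM to 9.34, 9.90 and 9.69 CPM (-0.32 ± 0.09, adjusted p = 0.027), while ZFAND2A, an arsenite-inducible zinc finger gene, rose by 0.62 ± 0.07. The fall of ZFAND2A-DT had an adjusted p of 0.053 with the replicate block, and its call was lost without sgCTL library A or C or sgDNAJC17 library B or C. Single libraries also decided the calls of PRDM16-DT (lost without sgCTL C), NCK1-DT (without sgCTL A, B or C or sgDNAJC17 C) and MCPH1-DT (without sgCTL A or C or sgDNAJC17 B or C), with adjusted p of 0.055 to 0.13. The calls of NCK1-DT and MCPH1-DT were also lost with DESeq2 (adjusted p = 0.058 and 0.051), and that of NCK1-DT with the block (0.051).

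Among transcripts called in Rh30 only, ITGB1-DT rose there by 0.74 ± 0.26 (adjusted p = 0.039), from 1.06, 0.643 and 1.53 CPM to 1.72, 1.94 and 1.71 CPM, and FGGY-DT by 0.43 ± 0.14 (adjusted p = 0.029). TNKS2-DT (chr10:91782839-91798291, minus strand) rose from 0.866, 0.919 and 0.964 CPM to 1.32, 1.26 and 1.73 CPM (0.66 ± 0.22, adjusted p = 0.034) while TNKS2, the gene of a tankyrase, fell by 0.21 on the log2 scale. That call was lost without any of 5 libraries (sgCTL A, B or C, sgDNAJC17 B or C) and under 4 other settings, DESeq2 among them. BAIAP2-DT fell from 16.6, 14.2 and 16.0 CPM to 12.8, 8.77 and 10.4 CPM (-0.53 ± 0.12, adjusted p = 0.0036), with the groups apart. SP2-DT fell by 0.47 on the log2 scale (adjusted p = 0.0045), TTC12-DT by 0.85 (adjusted p = 0.0091) and UBL7-DT by 0.36 (adjusted p = 0.046). A call in Rh30 only does not show that the lines differ. The difference itself was called for none of ITGB1-DT, FGGY-DT, TNKS2-DT, BAIAP2-DT, SP2-DT, TTC12-DT and UBL7-DT. The calls of ITGB1-DT and FGGY-DT were lost without sgCTL A or B or sgDNAJC17 B or C, and that of UBL7-DT without sgCTL B or C or sgDNAJC17 A or B. Scaling by library size and the GC and length correction also ended the calls of ITGB1-DT and FGGY-DT, the fit of all 18 libraries that of FGGY-DT, and DESeq2 that of UBL7-DT. The block added PCCA-DT (0.28, adjusted p = 0.0086), MVP-DT (-0.30, adjusted p = 0.046) and MINDY2-DT (-0.91, adjusted p = 0.046) to the named calls in Rh30.

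Changes of a transcript and its partner after sgDNAJC17 were only loosely related, with r = 0.25 over 198 pairs in ES8 and r = 0.29 over 210 pairs in Rh30, given as descriptions across genes. The ratio of transcript to partner was therefore tested itself, within each library, over all pairs of genes that start within 2 kb of each other on opposite strands and the pairs formed by name (limma). In ES8 it rose in 13 of 198 named pairs (all pairs tested: 13.2%) and fell in 9 (all pairs: 12.5%). In Rh30 it rose in 9 of 210 (all pairs: 9.42%) and fell in 6 (all pairs: 9.18%), and with the replicate block 29 ratios changed in place of 15. Without sgDNAJC17 library A 28 changed in Rh30, and without sgCTL A or C or sgDNAJC17 B or C 6 to 8. In ES8 14 changed in place of 22 without sgCTL A or C, and 32 without sgDNAJC17 A. The ratio changed in both lines for 4 pairs, 3 of which are given here, and the share of all pairs that did so is not given. It rose for TBC1D22A-DT by 1.49 ± 0.16 on the log2 scale in ES8 (adjusted p = 4.7e-05) and 0.73 ± 0.12 in Rh30 (adjusted p = 0.0011), and for CAPN10-DT by 1.21 and 0.85, and it fell for MCPH1-DT by 0.60 and 0.40.

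The third comparison asked whether the knockdown effect differed between the lines. The difference, Rh30 minus ES8, was called for 6 of 242 transcripts, against 9.78% of all genes. Without any 1 sgCTL library of either line, or without Rh30 sgDNAJC17 B, 2 or 3 were called. It was negative for POLG-DT (-2.21 ± 0.64, adjusted p = 0.031), TBC1D22A-DT and MVP-DT (-0.70 ± 0.18, adjusted p = 0.019), and positive for MRPL20-DT (0.88 ± 0.27, adjusted p = 0.040), CNN3-DT (0.64 ± 0.20, adjusted p = 0.046) and ZNF8-DT (0.52 ± 0.15, adjusted p = 0.035). POLG-DT was sparse in Rh30, with 24 counts over the sgCTL and 9 over the sgDNAJC17 libraries. MVP-DT, beside the major vault protein gene, was at 5.90, 4.74 and 5.04 CPM with sgCTL and 6.55, 6.38 and 7.95 CPM with sgDNAJC17 in ES8. In Rh30 it was at 4.95, 5.10 and 4.09 CPM with sgCTL and 3.79, 3.96 and 3.60 CPM with sgDNAJC17, so the groups were apart in both lines and in opposite order. The ES8 call was lost when scaled by library size alone (adjusted p = 0.057) and without sgCTL library B or C or sgDNAJC17 library C (adjusted p of 0.11 to 0.12). In Rh30 MVP-DT was not called in the fit without a block. Exons of other genes cover 48.2% of its length.

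In the ES8 ΔRRM libraries the transcripts stood close to the sgCTL libraries. Of 198 tested, 0 were called by edgeR (all genes: 0.174%) and 0 of 134 by DESeq2, with 12 at an unadjusted p under 0.05 (all genes: 13.4%) and a median log2 fold change of 0.02. The smallest adjusted p was 0.14, for PCCA-DT, which had 5.20, 6.20 and 5.34 CPM against 4.30, 3.49 and 3.99 CPM with sgCTL. Against the ES8 sgDNAJC17 libraries, 3 of 203 were higher in ΔRRM (all genes: 7.35%) and 4 were lower (all genes: 7.36%). The lower ones were RPL34-DT (-1.32 ± 0.32, adjusted p = 0.019), CAPN10-DT (-1.03 ± 0.23, adjusted p = 0.013), TBC1D22A-DT and ZMPSTE24-DT (-0.54 ± 0.15, adjusted p = 0.036), and the higher ones PCCA-DT, ZNF8-DT and ZFAND2A-DT. These 7 are named after their values were seen. The 3 comparisons within ES8 share libraries, so they are given side by side and not as support for each other.

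In the Rh30 ΔRRM libraries the transcripts were higher than in the sgCTL libraries. Of 218 tested, 93 rose (42.7%) where 33.8% of all genes rose, and 19 fell (8.72%) where 35% of all genes fell. With a fold of at least 2 required, 33 rose (15.1%, all genes 6.66%) and 5 fell (all genes: 3.32%). Of other lncRNAs 29.2% rose and 12.3% fell, and 11.2% rose and 3.64% fell at least 2-fold, so few falls were not particular to the divergent transcripts. The median log2 fold change was 0.46, against -0.06 for the partners, 0.21 for other lncRNAs and -0.01 for all genes. Scaling by library size alone moved the median of all genes to -0.25 and that of the transcripts to 0.22, with 72 rising and 27 falling.

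GC content moved with this result. In this comparison medians were lower at high than at low exon GC content for the transcripts, other lncRNAs and protein-coding genes alike, and only that of protein-coding genes was below 0 in the highest class. In the lowest of 3 classes (under 45.1% GC) the median was 0.59 for the transcripts and 0.27 for all genes, in the middle class 0.59 and 0.02, and in the highest (over 50.5% GC) 0.24 and -0.30. The transcripts were above all genes in each class, but once GC content and exon length were corrected for, their median was 0.12. Then 56 transcripts rose (25.7%, all genes 30.6%), 33 fell (15.1%, all genes 32.1%), and 12 rose at least 2-fold (5.50%, all genes 3.27%). With the correction the share that rose was thus below that of all genes, and the share that fell remained below it too.

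**Figure D3:**
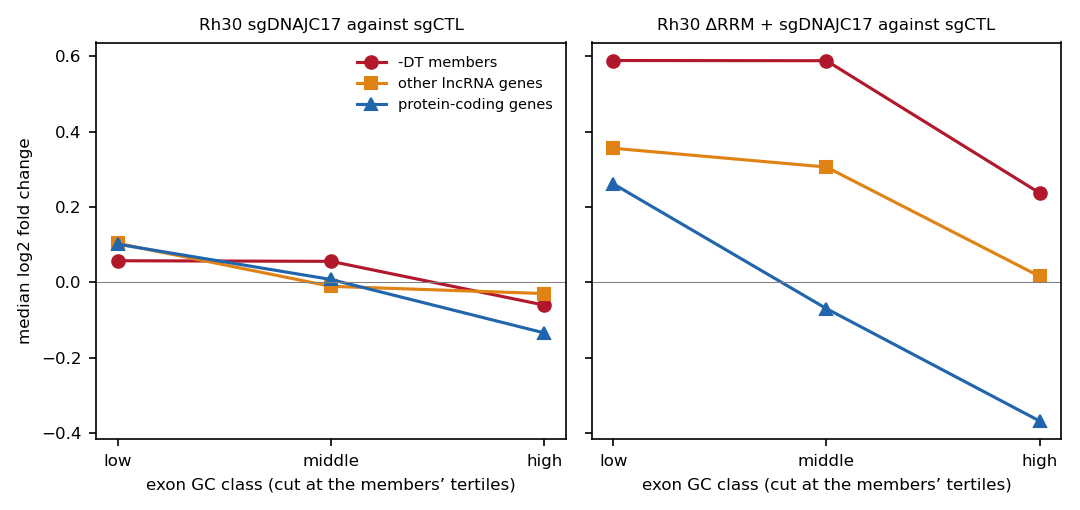
Median log2 fold change (y axis) of divergent transcripts, other lncRNA genes and protein-coding genes in 3 classes of exon GC content (x axis), cut at the tertiles of the transcripts, for Rh30 sgDNAJC17 (left) and Rh30 ΔRRM with sgDNAJC17 (right) against sgCTL. In the right panel the medians of the transcripts are 0.59, 0.59 and 0.24 from low to high GC content and those of protein-coding genes 0.26, -0.07 and -0.37.

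The plot by GC class shows both facts at once for ΔRRM: every set is lower at high than at low GC content, and the transcripts lie above the other sets within each class. Other lncRNAs had medians of 0.36, 0.31 and 0.02 in the 3 classes. With sgDNAJC17 alone the transcripts' medians were 0.06, 0.06 and -0.06. The rise was as large where exons were not shared: among the 135 transcripts tested with no exon in common with another gene 62 rose and the median was 0.54. Grouped by exon length, the transcripts stood near protein-coding genes in the short and middle classes, and the longest class is not given here. Up to 1232.67 bases the ΔRRM medians were 0.59 for the transcripts, 0.55 for protein-coding genes and 0.31 for other lncRNAs. In the middle length class, up to 2300 bases, they were 0.34, 0.37 and 0.22.

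RNASEH1-DT was at 15.4, 17.8 and 19.5 CPM in Rh30 sgCTL, 16.7, 18.7 and 18.3 CPM with sgDNAJC17 and 40.3, 35.03 and 40.3 CPM in ΔRRM. All 3 ΔRRM libraries were far above the other 6, at 1.19 ± 0.08 on the log2 scale against sgCTL (adjusted p = 3.2e-20), while RNASEH1 rose by 0.27. EMSY-DT was at 10.8, 13.2 and 13.9 CPM, then 10.9, 12.4 and 10.6 CPM, and 22.6, 22.4 and 26.2 CPM in ΔRRM (0.96 ± 0.09, adjusted p = 7.4e-15), and EMSY fell by 0.28 on the log2 scale.

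The largest rise by this test was that of SUGT1-DT, beside a gene of an HSP90 co-chaperone, at 2.25 ± 0.44 (adjusted p = 8.5e-06) from 19 counts over the sgCTL to 73 over the ΔRRM libraries. CKAP2-DT rose by 1.76 ± 0.22 from 0.866, 0.620 and 0.988 CPM to 3.10, 2.25 and 2.76 CPM, and OSER1-DT by 1.38 ± 0.20 from 1.11, 1.10 and 1.18 CPM to 3.53, 2.61 and 2.32 CPM, both with the groups well apart. SP2-DT and NCK1-DT, of which the first had fallen in Rh30 and the second in ES8 with sgDNAJC17, rose in Rh30 ΔRRM by 0.87 and 1.23. TNKS2-DT rose by 1.58 ± 0.21 while TNKS2 fell by 0.32 on the log2 scale. PCCA-DT had 0.35 ± 0.09 (adjusted p = 0.00069) and changed sign to -0.19 with the GC and length correction, and its call was lost when scaled by library size alone (0.12, adjusted p = 0.27).

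The 19 that fell included abundant transcripts. BAIAP2-DT fell to 9.11, 9.48 and 10.2 CPM (-0.65 ± 0.09, adjusted p = 7.2e-09), along with BAIAP2 (-0.59). ZNF584-DT fell from 15.9, 14.3 and 12.7 CPM to 6.93, 6.95 and 8.64 CPM (-0.88 ± 0.10), and CTBP1-DT from 12.6, 11.7 and 10.7 CPM to 5.96, 7.34 and 5.38 CPM (-0.84 ± 0.11), in both cases without overlap. CENATAC-DT fell by 0.76 on the log2 scale while CENATAC, the gene of a component of the minor spliceosome, rose by 0.97. KIF26A-DT had the lowest value, -1.57 ± 0.47 (adjusted p = 0.0027), from 72 to 19 counts, with KIF26A at -1.16. Of the genes in the last 3 paragraphs, SUGT1-DT, CKAP2-DT, OSER1-DT, ZNF584-DT, CTBP1-DT, CENATAC-DT and KIF26A-DT were chosen after their values were seen.

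**Figure D4:**
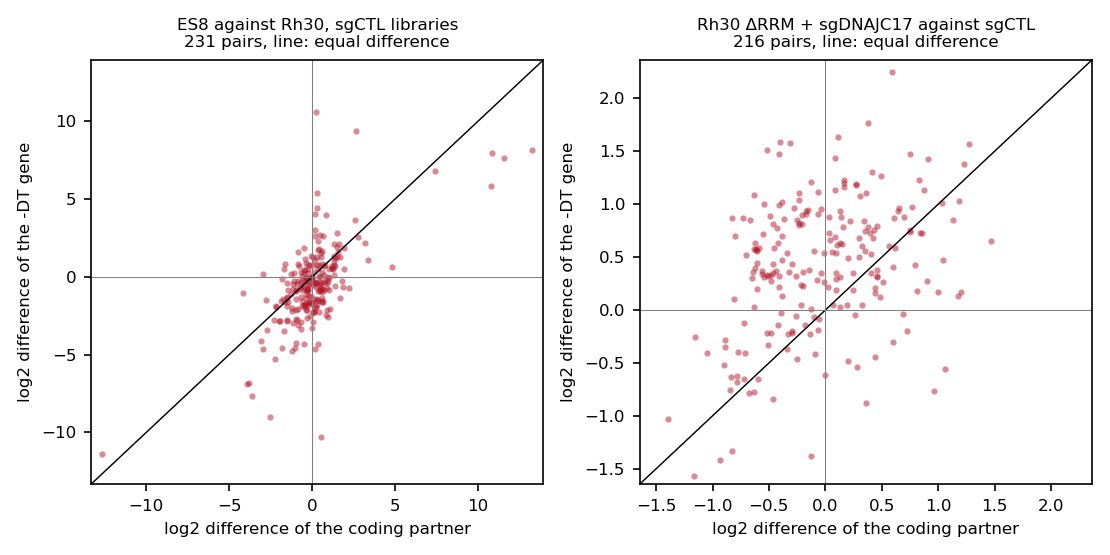
Log2 difference of each divergent transcript against that of its coding partner, for ES8 against Rh30 in the sgCTL libraries (231 pairs) and for Rh30 ΔRRM with sgDNAJC17 against sgCTL (216 pairs); the diagonal marks equal differences. In the left panel pairs scatter along the diagonal (r = 0.67), and in the right panel 162 of 216 pairs lie above it.

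The plot of transcript against partner shows that, before any correction, the rise in Rh30 ΔRRM was a rise over the partner too. The pair differences were not corrected for GC content or exon length. Exon length had a median of 1776.5 bases for the transcripts and 5661.5 for the partners, and its part in these differences was not tested. The transcript had the higher log2 fold change in 162 of 216 pairs, with a median difference of 0.42. Both genes were called in 88 pairs, in the same direction in 53 and in opposite directions in 35. Per kb the median transcript then stood at 12.3% of its partner, and 37 of 237 were above it.

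Against the Rh30 sgDNAJC17 libraries, which also received the guide, 79 of 212 transcripts were higher in ΔRRM (29.4% of all genes) and 17 were lower (30.5%), with 32 higher by at least 2-fold (4.42%) and a median of 0.36 (0.19 after the GC and length correction). Of other lncRNAs 27.6% were higher and 13% lower, and 10.7% were higher by at least 2-fold. This comparison shares the ΔRRM libraries with the preceding one. The ΔRRM effect was also compared between the lines, a test added after the data were seen. Rh30 exceeded ES8 for 46 of 241 transcripts (19.9% of all genes) and ES8 exceeded Rh30 for 6 (21.5%), with a median difference of 0.44, or 0.18 and 26 and 9 calls after the correction. RNASEH1-DT had a difference of 1.04 ± 0.13 (adjusted p = 1.4e-06) and EMSY-DT one of 0.92 ± 0.16 (adjusted p = 6.9e-05).

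Markers moved beside these results, and their part in them was not tested. In Rh30 ΔRRM 7 of the 8 rhabdomyosarcoma markers fell and their sum was 2187 to 2397 CPM, and the 10 epithelial genes summed to 97 to 106 CPM in Rh30 sgCTL, 90.2 to 101 with sgDNAJC17 and 131 to 144 in ΔRRM, with CLDN7 and RAB25 at 0 in the controls. These sums rest on few genes, since 9 of the 10 averaged under 1 CPM in Rh30 sgCTL, 6 with sgDNAJC17 and 6 in ΔRRM. Of the 5 epithelial genes tested, 4 rose and 1 fell with sgDNAJC17, and 5 rose in ΔRRM. With sgDNAJC17 alone 3 of the 8 rhabdomyosarcoma markers fell and 1 rose in Rh30, with a sum of 2794 to 3047 CPM against 3344 to 3478 in the controls. In ES8, 3 of the 8 Ewing sarcoma markers fell with sgDNAJC17, with a sum of 485 to 494 CPM against 577 to 595 in the controls, while 0 of 4 epithelial genes tested were called by edgeR. In these bulk samples fewer cells of a type and less RNA per cell cannot be told apart.

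The machinery that limits divergent RNA was read from a list of 54 genes for the U1 ribonucleoprotein, the exosome and its adaptors, cap binding and early termination. With sgDNAJC17, 9 rose and 11 fell in ES8 (all genes: 13.6% and 13.8%), and 14 rose and 5 fell in Rh30 (all genes: 16.1% and 16.2%). The 8 called in both lines went the same way in both, and the share of all genes that did so is not given. INTS1, of the Integrator complex that terminates short transcripts, had log2 fold changes of -0.47 in ES8 and -0.89 in Rh30, CPSF1, of the polyadenylation machinery, had -0.63 and -0.46, and ZFC3H1, a scaffold of an exosome adaptor, -0.63 and -0.31. NCBP2, the small cap-binding subunit, rose by 0.47 and 0.48, and SNRPC, of the U1 ribonucleoprotein, by 0.41 and 0.42. CSTF1 (0.47 and 0.18) and WDR82 (0.39 and 0.20), listed under early termination, rose as well. EXOSC10, of the exosome, had -0.23 and -0.22. In ES8 ΔRRM 0 of the 54 were called by edgeR (all genes: 0.174%). In Rh30 ΔRRM 28 rose and 20 fell (all genes: 33.8% and 35%), among them 10 that rose and 2 that fell of 13 exosome genes. In the other groups of the list 1 rose and 2 fell for U1, and 4 rose and 4 fell for the exosome adaptors. For cap binding 1 rose and 3 fell, and for early termination 12 rose and 9 fell. No link to the divergent transcripts was tested.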

How the data were processed

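RNA-seq was performed on polyA-selected RNA of 18 libraries (6 groups of 3). The authors deposited read counts per gene, made, according to the submitters' processing notes, with Trimmomatic 0.36, STAR 2.5.2b and featureCounts from Subread 1.5.2 on GRCh38. The study's methods name another build, but 85.3% of 19043 coding genes matched by symbol start within 1 kb of the GRCh38 table, so coordinates are given in GRCh38. The library kit is not described as directional and the strand setting of the counting is not given in the sources used here. Of 57500 genes, 2418 carried no symbol and stayed in the fits under their identifier.

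Counts were tested with edgeR 4.0.16 (R 4.3.3; filterByExpr, TMM, quasi-likelihood test), with the groups compared alone in each fit and Benjamini-Hochberg adjustment over all genes tested, and called at an adjusted p under 0.05. Of the 242 members, 198 to 234 passed the filter in a comparison of 2 groups. Ratios to the partner were tested with limma 3.58.1 (trend) on log2 counts with a pseudocount of 0.5 per library. CPM values are TMM-scaled over the 18 libraries. The GC and length correction subtracted lowess curves (span 0.3) as offsets. DESeq2 1.42.0 was an alternative, as were other scalings, filters, a block for the replicate letter and leaving out each library. Detection is set by counting error at these depths, since a mean of 10 counts is measured less precisely than one of 1000. On simulated counts with 200 genes changed by a log2 of 1, 194 were recovered with 16 false calls among 17112 genes for the ES8 knockdown, and 193 with 13 among 15385 for that of Rh30. The changed genes were drawn from all genes above a minimum mean count, and every gene had the same spread beyond counting error. The recovery therefore does not measure that of the transcripts, of which 149 of 242 had a mean under 50 counts. Tables were read with Python 3.11.15, pandas 2.3.3 and numpy 2.4.6.

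The replicate letters A to C, whose meaning the labels do not give, were checked for pairing. In the Rh30 knockdown, deviations from the group means of libraries with the same letter correlated at 0.58, 0.29 and 0.35 over 11426 genes with a mean count of at least 100 (0.20, 0.07 and 0.10 over all 15391 tested). There 6 of 6 libraries correlated best with their own letter. The reported values are nonetheless those of the fit without a block, which leaves this pairing out, and the blocked ones are given where a call or count differed. With the block 15 transcripts rose and 10 fell in the Rh30 knockdown (all genes: 23.5% each way), in place of 10 and 6. In the ES8 knockdown the correlations were -0.14, -0.37 and 0.33 over 12321 genes, and the letters were not taken as pairs.

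The members and lists were chosen with earlier results of these data known. Named were the members called in both lines with a fold of at least 2 in one, the 4 with the largest change per line and direction at a mean count of at least 50, the 5 with the highest level per kb, the 3 with the smallest p of the difference between lines, the 3 extreme each way between the lines, those called against a called partner, and those at the count threshold. The difference in the ΔRRM effect between the lines, the medians, the counts of rises in ΔRRM and the scaling by library size were added after seeing the data. Some transcripts that this rule names are not reported here.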

Additional observations from a re-analysis of the deposited data

Results flagged for a closer look

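The knockdown effect differed between the lines by a test of the difference itself (edgeR, Rh30 minus ES8, log2) for 6 divergent transcripts: CNN3-DT (0.64), MRPL20-DT (0.88), MVP-DT (-0.70), POLG-DT (-2.21), TBC1D22A-DT (-0.74) and ZNF8-DT (0.52). CNN3-DT was called in neither line alone (adjusted p = 0.099 in ES8, where the 3 sgDNAJC17 libraries had 1.78 to 1.79 CPM against 2.09 to 2.40 with sgCTL, and 0.097 in Rh30). ZNF8-DT fell in ES8 from 8.06, 8.11 and 8.48 CPM to 5.68, 5.95 and 6.53 CPM, and in Rh30 had 6.26, 5.58 and 5.50 CPM with sgCTL and 5.53, 6.61 and 5.89 CPM with sgDNAJC17.

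The ΔRRM effect differed between the lines for 52 of 241 transcripts, a test added after the data were seen. Among the named transcripts the difference was -0.46 for BAIAP2-DT, 0.92 for EMSY-DT, 1.11 for NCK1-DT, 1.20 for POLG-DT, 1.04 for RNASEH1-DT, 0.83 for SP2-DT and 0.57 for UBL7-DT.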

How the results depend on the processing

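Of the 242 transcripts, 149 had a mean under 50 counts, where counts are least precise. Of 192 counts and medians recomputed with all libraries in, 135 stayed within 1.5 times of the reported count or within the replicate spread of the reported median, and the other 57 follow. Stricter thresholds and filters leave fewer calls by construction, and the cause of the other moves was not tested.

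At an adjusted p under 0.01 the ES8 knockdown had 5 rises and 0 falls, the Rh30 knockdown 3 and 3, ES8 ΔRRM against knockdown 1 call, the difference in the knockdown effect 0, the difference in the ΔRRM effect 27 (24 up), and the ratio to the partner 11 in ES8 and 4 in Rh30. With a fold of at least 2 required these counts were 5 and 0, 4 and 1, 2, 1 and 29 (27 up), with 38 calls (33 up) for Rh30 ΔRRM against control and 36 (32 up) against knockdown.

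DESeq2's test gave 9 rises in the ES8 knockdown and 11 calls in ES8 ΔRRM against knockdown, and DESeq2's size factors gave 11 for the latter. Scaling by library size alone gave 9 rises in the ES8 and 6 in the Rh30 knockdown and 28 higher ΔRRM effects in Rh30, with medians of 0.22 for Rh30 ΔRRM against control, 0.20 against knockdown, -0.36 between the lines and 0.23 for the difference in the ΔRRM effect. With no filter ES8 ΔRRM had 2 calls against control and 13 against knockdown, and the Rh30 ΔRRM median was 0.41. With at least 10 counts in every library 108 transcripts differed between the lines (73 higher in Rh30, median -0.44), and the medians were 0.40 for Rh30 ΔRRM against knockdown and 0.51 for the difference in the ΔRRM effect. With all 18 libraries in 1 fit there were 10 falls in the ES8 knockdown, 27 calls in ES8 ΔRRM against knockdown and a median of 0.39 for the difference in the ΔRRM effect.

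With the GC and length correction there were 16 falls in the ES8 knockdown, 4 rises and 14 falls in that of Rh30, 56 rises in Rh30 ΔRRM (median 0.12), 20 calls in ES8 ΔRRM against knockdown and 26 higher ΔRRM effects in Rh30 (median 0.18). The medians were 0.19 for Rh30 ΔRRM against knockdown and -0.49 between the lines, and PCCA-DT in Rh30 ΔRRM changed sign to -0.19.

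With the replicate block, which pairs libraries by letter, there were 9 rises in the ES8 knockdown (all genes: 11.9%), 10 falls (all genes: 23.5%) and 29 changed ratios in that of Rh30 and 3 calls in ES8 ΔRRM against knockdown, and no other count of calls moved by over 1.5 times.

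Leaving out 1 library at a time gave 6 to 26 rises and 1 to 7 falls in the ES8 knockdown, 4 to 16 and 3 to 8 in that of Rh30, 14 to 32 and 6 to 28 changed ratios, and 2 to 9 differences in the knockdown effect. ES8 ΔRRM had 0 to 1 calls against control and 2 to 9 against knockdown. Rh30 ΔRRM had 98 to 106 calls (82 to 91 up, median 0.43 to 0.50) against control and 78 to 94 (64 to 82 up, median 0.33 to 0.41) against knockdown, and 40 to 62 ΔRRM effects differed (35 to 56 up, median 0.41 to 0.47). Between the lines 169 to 177 differed (117 to 122 higher in Rh30, median -0.68 to -0.55). Where this leaves 2 libraries in a group, edgeR's pooled spread was used.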

Other observations

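At the count threshold, where the transcripts are given as values only, MINDY2-DT had 18, 21 and 31 counts in the Rh30 controls and 2, 6 and 4 in those of ES8, and GPR176-DT had 7, 15 and 16 counts in Rh30 and 3, 9 and 2 in ES8. Just below it, SF1-DT had 22, 7 and 13 counts in the Rh30 controls and 8, 3 and 2 in those of ES8, and ZNF747-DT had 3, 11 and 9 in Rh30 and 27, 9 and 12 in ES8.

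Among pairs with counts in both genes, CHKB-DT had the highest level relative to its partner in the Rh30 controls, at 9.06 CPM per kb against 0.283 for CHKB, a choline kinase gene, although its 5′ end is 18429 bases from that of CHKB. It reached 9.49, 7.94 and 9.75 CPM in Rh30 ΔRRM from 5.32, 5.14 and 5.24 CPM in the controls, without overlap. PIWIL2-DT was above PIWIL2, a gene of the piRNA pathway, in both lines, at 1.23 against 0.0128 CPM per kb in ES8 and 0.344 against 0.0401 in Rh30. Both transcripts were named after their values were seen.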
